A study of Arabidopsis thaliana with 18 samples.

Results

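Abscisic acid (ABA), the hormone that slows water loss and growth in drying plants, is made, broken down, released from storage and moved between cells by separate proteins, and 6 Arabidopsis thaliana genes for such proteins, with a gene for another product of carotenoid cleavage among them, are described here. They are NCED3 (AT3G14440), CYP707A1 (AT4G19230), CYP707A2 (AT2G29090), BG1 (AT1G52400, named BGLU18 in RefSeq), ABCG40 (AT1G15520) and CCD8 (AT4G32810). They were taken by locus identifier, as a list, from the 6740 genes of the deposited table, and all 6 are in it. The genes were chosen by their measured levels over the 6 groups, so their values are given as a description without a test.

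RNA was sequenced from seedlings of the Col-0 ecotype, 9 days old, in 18 libraries of 6 groups with 3 libraries each. The pyl duodecuple line, which by its name carries mutations in 12 genes of the PYR/PYL family of ABA receptors, and the wild type (WT) were each treated on filter paper for 24 h. The treatments were 100 µM ABA, 300 mM mannitol, a sugar alcohol that withdraws water from cells (osmotic stress), or 1/2 MS medium alone (control). The labels do not name the alleles, and whether the line is a single isolate is not given in the sources used here. The table holds 1 value per gene and group, in FPKM (fragments per kilobase of transcript, scaled to all mapped fragments), so no replicate error can be given and the depth is unknown. Nothing in the labels says whether the 3 libraries of a group came from separate cultures.

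ABA is cut out of carotenoids. A 9-cis-epoxycarotenoid dioxygenase splits the pigment in plastids, the step held to limit ABA synthesis, and later enzymes in the cytosol finish the hormone. Cytochrome P450 hydroxylases of the CYP707A family start its breakdown, while conjugation to glucose stores it in a form that beta-glucosidases can reverse. Another dioxygenase, CCD8, works in the path from carotenoids to strigolactones, hormones that restrain shoot branching and are released by roots.

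Mannitol raised the synthesis gene NCED3, the release gene BG1 and the importer gene ABCG40 in both genotypes. The breakdown gene CYP707A1 and the strigolactone gene CCD8 were called higher in WT alone. A rise or fall means a yes call by the authors, whose rule is not stated. Under ABA the authors called 0 of the 6 genes in the duodecuple line, where 2.49% of the table's genes were called higher and 2.79% lower; neither p-values nor another tool's calls can be set beside this 0. In WT seedlings on ABA, 4 of the 6 were called higher (table, 17.6%) and 1 lower (27.3%). Under mannitol, the duodecuple line had 3 higher calls (23.3%) and 0 lower (27.2%), and WT had 5 higher calls (33.1%) and 0 lower (35.3%). Every gene of the table carries at least 1 call, so these shares exceed those of a whole genome, and nothing is read from the counts because the same levels chose the genes. ABA and mannitol were set against the same control libraries of each genotype, so the responses to them are not independent.

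**Figure D1:**
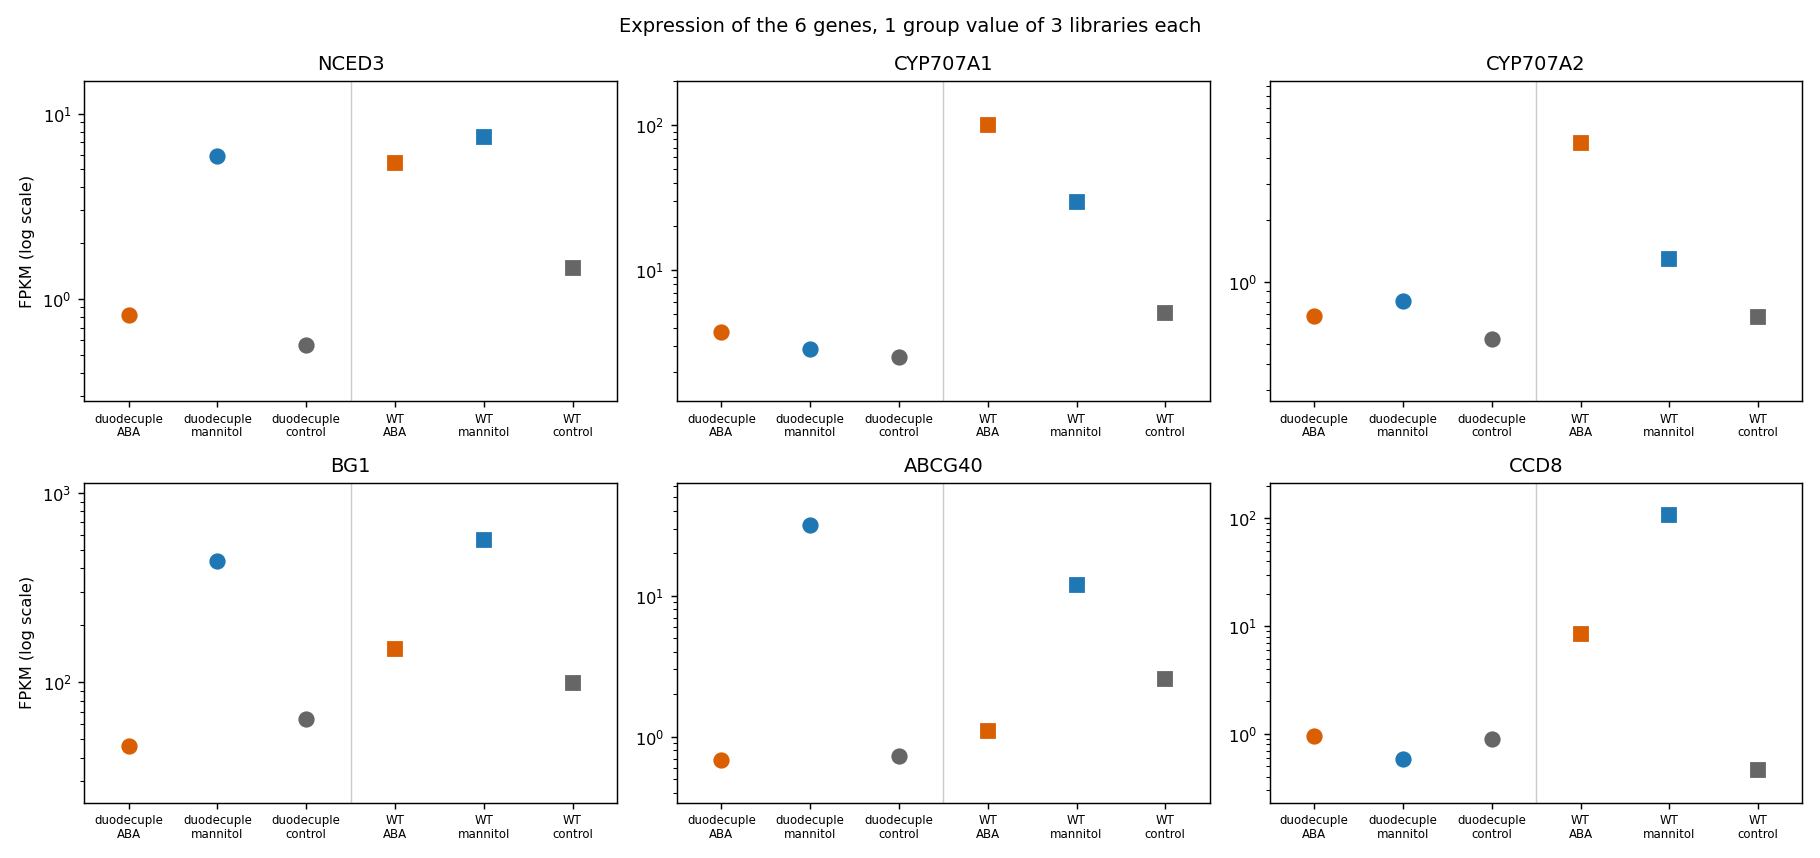
Expression of the 6 genes in FPKM on log axes, with circles for the duodecuple line and squares for WT, coloured by treatment; each point is 1 group value made by the authors from 3 libraries, without error. CYP707A1, CYP707A2 and CCD8 stand low in all 3 duodecuple groups, at 3.75 FPKM or less, while NCED3, BG1 and ABCG40 stand high under mannitol in both genotypes.

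NCED3, the dioxygenase gene most tied to ABA synthesis in drying leaves, was raised by mannitol in both genotypes and by ABA in WT. Its level was 0.813 FPKM under ABA, 5.88 FPKM under mannitol and 0.562 FPKM in control seedlings of the duodecuple line. In WT it was 5.39 FPKM under ABA, 7.50 FPKM under mannitol and 1.46 FPKM in control. Both mannitol groups and the ABA-treated WT thus lay above the other 3 groups, with a 13.3-fold span from highest to lowest. The authors' deposited table gives a log2 ratio to control of 3.39 (10.5-fold) for mannitol in the duodecuple line and of 2.36 (5.14-fold) in WT, both called. For ABA the ratios were 0.53 in the duodecuple line, not called, and 1.88 (3.69-fold) in WT, called.

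Between genotypes, NCED3 was 6.63-fold lower in duodecuple than in WT seedlings under ABA, 1.27-fold lower under mannitol and 2.60-fold lower in control. Such ratios carry no authors' call and were not tested. The mutant had the larger ratio to control under mannitol but the lower level: its response exceeded that of WT by 1.03 on the log2 scale, and by 0.35 once 1 FPKM was added to each value.

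The NCED3 promoter is shown as that of the ABA synthesis gene. These are the 250 bases before the gene start in the RefSeq annotation of TAIR10.1, minus strand, chr3:4834016-4834265.
NCED3: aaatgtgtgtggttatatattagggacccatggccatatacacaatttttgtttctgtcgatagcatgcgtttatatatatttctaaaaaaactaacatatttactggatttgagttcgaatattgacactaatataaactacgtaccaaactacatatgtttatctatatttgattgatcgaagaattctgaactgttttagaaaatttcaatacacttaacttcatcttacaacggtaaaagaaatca
Neither ACGTG, the core of the ABA response element, nor CCGAC, the core of the dehydration response element, was found in this window on either strand. Among 27443 promoters of protein-coding genes, 22.9% held ACGTG and 12% held CCGAC in a window of this length. NCED3 lies at 4831286 to 4834015 on chromosome 3 and has a single exon, with 1800 coding bases.

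The genes whose levels ran closest to NCED3 over the 6 groups were CCR2 (AT1G80820), a cinnamoyl-CoA reductase gene, AT3G16800, a protein phosphatase 2C family gene, and MYB78 (AT5G49620), a transcription factor gene. Closeness is the root mean square difference of log2(FPKM + 1) values after each gene's own mean is subtracted, over genes with at least 5 FPKM in their highest group. It was 0.10 for CCR2, 0.15 for AT3G16800 and 0.16 for MYB78. The added 1 FPKM damps the ratios of genes with low levels, NCED3 among them, so close genes can still differ in fold change. CCR2 had 6.12, 27.3 and 5.48 FPKM under ABA, mannitol and control in the duodecuple line, and 24.1, 37.5 and 7.80 FPKM in WT.

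CYP707A1 encodes an ABA hydroxylase, and its large rises were called in WT alone. In duodecuple seedlings it was listed at 3.75 FPKM under ABA, 2.86 FPKM under mannitol and 2.52 FPKM in control. WT seedlings had 100.5 FPKM under ABA, 29.6 FPKM under mannitol and 5.05 FPKM in control. All 3 duodecuple groups were below every WT group. The authors' deposited table gives log2 ratios to control of 0.58 under ABA and 0.19 under mannitol for the duodecuple line, neither called, against 4.31 (19.9-fold) and 2.55 (5.85-fold) for WT, both called.

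Set between genotypes, CYP707A1 was 26.8-fold lower in the duodecuple line under ABA, 10.3-fold lower under mannitol and 2.01-fold lower in control, the last of these at the 2-fold limit itself. In WT, mannitol gave a level 3.40-fold below that of ABA, and in the duodecuple line 1.31-fold below it. Of the 1163 genes called higher in WT by ABA with a finite ratio, CYP707A1 had the 73rd largest ratio.

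The CYP707A1 promoter is shown because it holds a match close to the gene start. It is the plus strand of chr4:10521009-10521258 in TAIR10.1, and capitals mark the match.
CYP707A1: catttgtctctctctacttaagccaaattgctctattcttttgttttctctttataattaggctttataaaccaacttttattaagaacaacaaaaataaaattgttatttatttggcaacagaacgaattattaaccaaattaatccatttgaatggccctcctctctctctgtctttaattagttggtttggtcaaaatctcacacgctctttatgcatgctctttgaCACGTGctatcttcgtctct
The match reads the same on both strands, so ACGTG was counted on each of them, from 20 to 15 bases before the start. CCGAC was not found. Within the table, 29.5% of promoters held ACGTG, so a match alone sets no gene apart. CYP707A1 spans 10521259 to 10523961 on chromosome 4.

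Nearest to CYP707A1 in level were AT3G48510 at 0.24, AT3G15670, a late embryogenesis abundant (LEA) protein gene, at 0.27, and AT5G07330 at 0.31. AT3G15670 had 1.43, 0.539 and 0.117 FPKM in the duodecuple line under ABA, mannitol and control, and 35.2, 12.5 and 2.25 FPKM in WT.

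CYP707A2, the hydroxylase gene best known from seeds that take up water, had low levels and was called higher in ABA-treated WT alone. The duodecuple line had 0.683 FPKM under ABA, 0.805 FPKM under mannitol and 0.529 FPKM in control. WT had 4.74 FPKM under ABA, 1.30 FPKM under mannitol and 0.679 FPKM in control. The ABA-treated WT stood apart, and the other 5 groups lay between 0.529 and 1.30 FPKM. In the authors' deposited table the log2 ratio under ABA was 0.37 in the duodecuple line and 2.80 (6.98-fold) in WT, with the WT change called. Under mannitol it was 0.61 in the duodecuple line and 0.94 in WT, and neither was called. The ABA-treated duodecuple line had 6.95-fold less CYP707A2 than the ABA-treated WT.

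CYP71B2 (AT1G13080), another P450 gene, was nearest to CYP707A2 at 0.11, followed by MYB41 (AT4G28110), a transcription factor gene, at 0.11 and GPAT5 (AT3G11430), an acyltransferase gene of suberin synthesis, at 0.13. GPAT5 had 4.86, 5.53 and 4.24 FPKM in the duodecuple line under ABA, mannitol and control, and 17.2, 7.20 and 3.64 FPKM in WT. The coding sequences of CYP707A1 and CYP707A2 shared 59.5% of aligned bases, and those of CYP707A1 and CYP707A3 79%. No stretch of 50 bases in the longest annotated transcript of any of the 6 genes recurred elsewhere in the genome.

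BG1 encodes a beta-glucosidase that frees ABA from its glucose ester, and in each of the 6 groups it had the highest FPKM of these genes, with CYP707A1 nearest in ABA-treated WT. Duodecuple seedlings had 46.3 FPKM under ABA, 436 FPKM under mannitol and 63.9 FPKM in control. WT seedlings had 150.0 FPKM under ABA, 567 FPKM under mannitol and 99.6 FPKM in control. Mannitol groups were above all others in both genotypes. The authors' deposited table gives a log2 ratio under mannitol of 2.77 (6.83-fold) in the duodecuple line and 2.51 (5.69-fold) in WT, both called, and these ratios differed by 0.26. Under ABA the ratio was -0.46 in the duodecuple line and 0.59 in WT, and neither was called. The ABA-treated duodecuple line was 3.24-fold below the ABA-treated WT.

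AT2G15780, a cupredoxin family gene, was nearest to BG1 at 0.19. AT3G51660, of the tautomerase family, and CML41 (AT3G50770), a calmodulin-like gene, were both at 0.28. CML41 had 13.5, 167 and 16.2 FPKM in the duodecuple line under ABA, mannitol and control, and 40.1, 204 and 20.6 FPKM in WT.

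ABCG40 encodes a plasma membrane transporter that takes ABA into cells. It had its highest level in the mannitol-treated mutant and was called lower in WT on ABA. The duodecuple line had 0.681 FPKM under ABA, 31.7 FPKM under mannitol and 0.727 FPKM in control. WT had 1.10 FPKM under ABA, 11.9 FPKM under mannitol and 2.58 FPKM in control. Alone among the 6 genes, its duodecuple level under mannitol lay above the WT one, by 2.67-fold. The authors' deposited table gives a log2 ratio under mannitol of 5.44 (43.6-fold) in the duodecuple line and 2.20 (4.60-fold) in WT, both called. Under ABA it gives -0.09 in the duodecuple line, not called, and -1.23 in WT, called.

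Control seedlings of the mutant had 3.55-fold less ABCG40 than WT controls, so the mannitol response of the mutant exceeded that of WT by more than the levels did, 9.48-fold or 3.24 on the log2 scale. That difference was 2.40 with 1 FPKM added to each value and 1.53 with 5 FPKM added. With 5 FPKM added to each value ABCG40 under mannitol was still more than 2-fold above control in both genotypes. The WT fall under ABA was between levels of 1.10 and 2.58 FPKM, and the log2 ratio was -0.77 with 1 FPKM added and -0.93 relative to the median ratio of all table genes.

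The ABCG40 promoter is shown beside that of CYP707A1 because it too holds ACGTG. Whether a match bears on any response was not tested. It is the minus strand of chr1:5338327-5338576 in TAIR10.1, and capitals mark the match.
ABCG40: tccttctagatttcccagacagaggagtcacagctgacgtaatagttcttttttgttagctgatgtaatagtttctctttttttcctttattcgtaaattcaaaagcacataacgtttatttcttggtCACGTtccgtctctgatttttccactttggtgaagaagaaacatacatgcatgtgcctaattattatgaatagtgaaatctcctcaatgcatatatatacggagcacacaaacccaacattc
Here the match, on the strand opposite to the gene, lies 122 to 118 bases before the start. ABCG40 and CYP707A1 were the 2 genes of the 6 with ACGTG in the window (table promoters, 29.5%), and 0 of the 6 held CCGAC (12%).

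Over the 6 groups, the genes closest to ABCG40 were AT1G57630, a TIR domain gene, at 0.20, AT3G47480, a calcium-binding EF-hand gene, at 0.26, and JAZ8 (AT1G30135), a repressor of jasmonate signalling, at 0.29. JAZ8 had 0.462, 20.9 and 0.792 FPKM in the duodecuple line under ABA, mannitol and control, and 1.03, 7.20 and 1.34 FPKM in WT.

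CCD8 had the widest range of the 6 genes, and its rises were called in WT alone. Duodecuple seedlings had 0.966 FPKM under ABA, 0.582 FPKM under mannitol and 0.897 FPKM in control. WT seedlings had 8.45 FPKM under ABA, 107 FPKM under mannitol and 0.462 FPKM in control. Mannitol-treated WT stood far above every other group and ABA-treated WT was next, with the remaining 4 groups under 1 FPKM. The authors' deposited table gives a log2 ratio under mannitol of -0.62 in the duodecuple line, not called, and 7.85 (231-fold) in WT, called. Under ABA it gives 0.11 in the duodecuple line, not called, and 4.19 (18.3-fold) in WT, called.

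With mannitol, the duodecuple line held 183-fold less CCD8 than WT, with ABA 8.75-fold less, and in control 1.94-fold more. The WT ratio was the 6th largest of the 2198 called rises with a finite ratio under mannitol, and the 84th of 1163 under ABA. Mannitol-treated WT had 12.6-fold more CCD8 than ABA-treated WT. The control value of 0.462 FPKM is low, and with 5 FPKM added to each value the WT log2 ratio was 4.36 under mannitol and 1.30 under ABA.

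CCD8 lies at 15828228 to 15831492 on chromosome 4, plus strand, in TAIR10.1. Its last 330 bases, 15.7% of its exon bases, are also exon of AT4G32820 on the opposite strand. Whether counting used strand is not given in the sources used here, and AT4G32820 was not analysed here, so reads from the shared end cannot be assigned with certainty. The CCD8 promoter, chr4:15827978-15828227 on the plus strand, is shown as that of the gene with the largest response; it held neither ACGTG nor CCGAC.
CCD8: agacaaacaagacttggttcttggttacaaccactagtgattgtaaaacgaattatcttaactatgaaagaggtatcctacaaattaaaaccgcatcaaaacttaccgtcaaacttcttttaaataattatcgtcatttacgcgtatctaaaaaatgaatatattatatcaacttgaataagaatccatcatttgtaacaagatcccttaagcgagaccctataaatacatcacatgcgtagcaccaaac

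By this measure no gene followed CCD8 as closely as others followed the 5 remaining genes. The measure is not scaled to a gene's range, which was widest for CCD8, so the distances are not alike across genes. AT4G11910 was nearest at 0.72, then AMY1 (AT4G25000), an alpha-amylase gene, at 0.73 and ENODL1 (AT5G53870), an early nodulin-like gene, at 0.80. AMY1 had 0.524, 1.98 and 0.336 FPKM in the duodecuple line under ABA, mannitol and control, and 19.8, 60.0 and 0.327 FPKM in WT, with a smaller gap between mannitol and ABA in WT than CCD8.

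**Figure D2:**
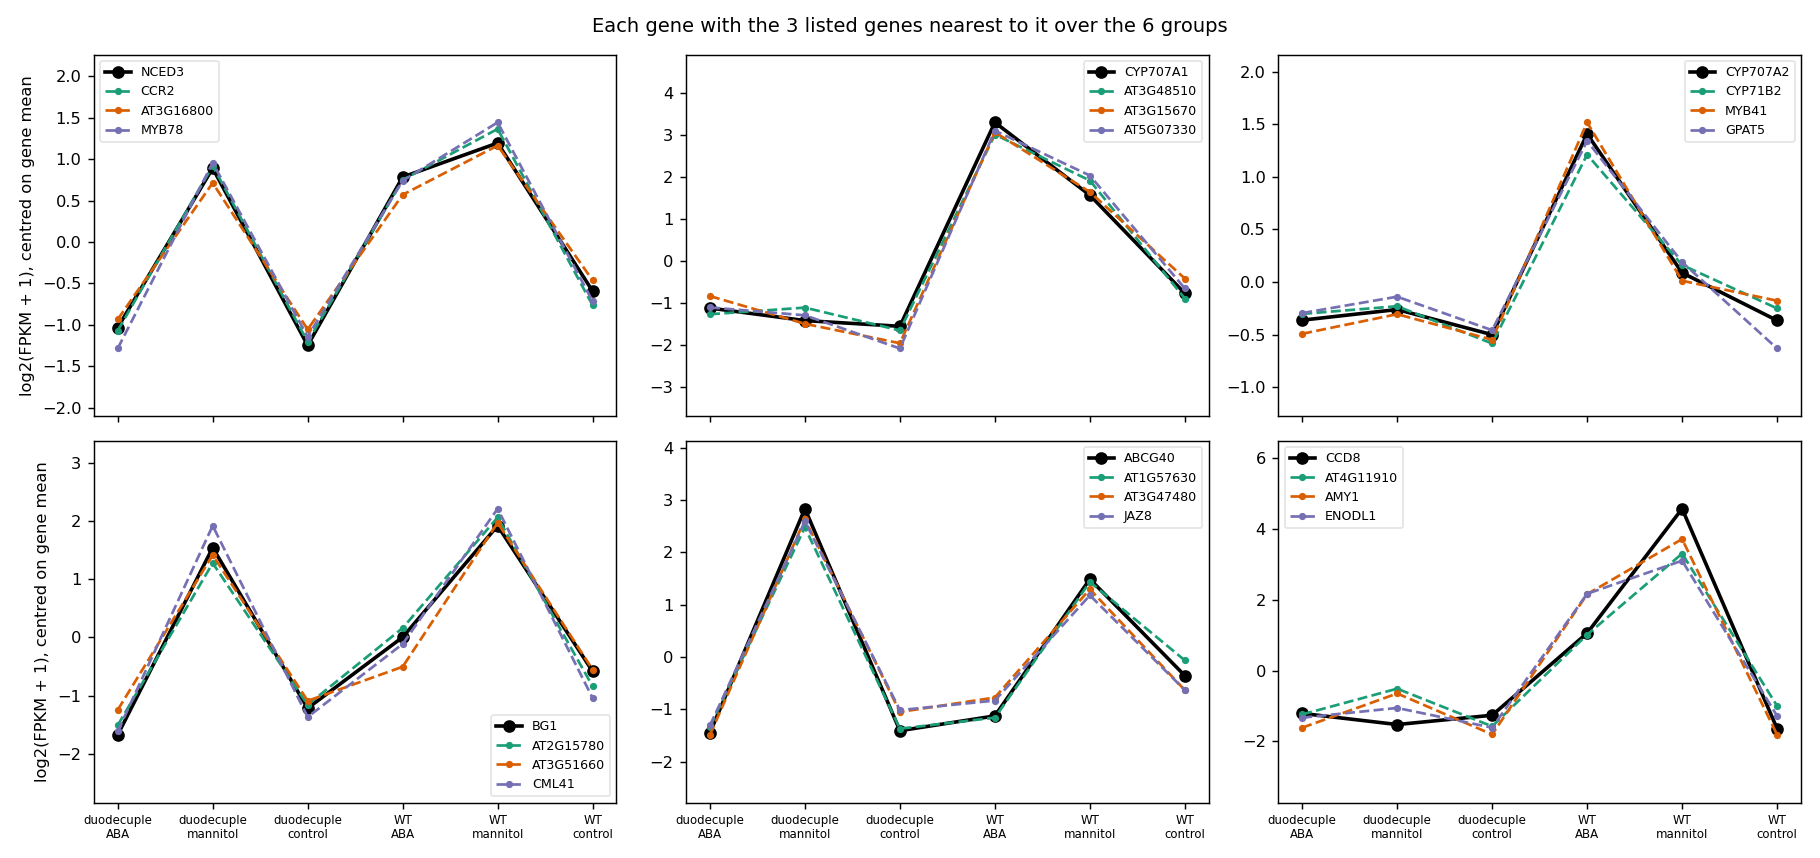
Levels as log2(FPKM + 1) centred on each gene's mean over the 6 groups, for the 6 genes (black, solid) and the 3 genes of the table nearest to each (dashed). The dashed lines stay within 0.10 to 0.31 of the black line by root mean square difference, except around CCD8, where they differ by 0.72 to 0.80. The difference is not scaled to a gene's range, which is widest for CCD8.

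**Figure D3:**
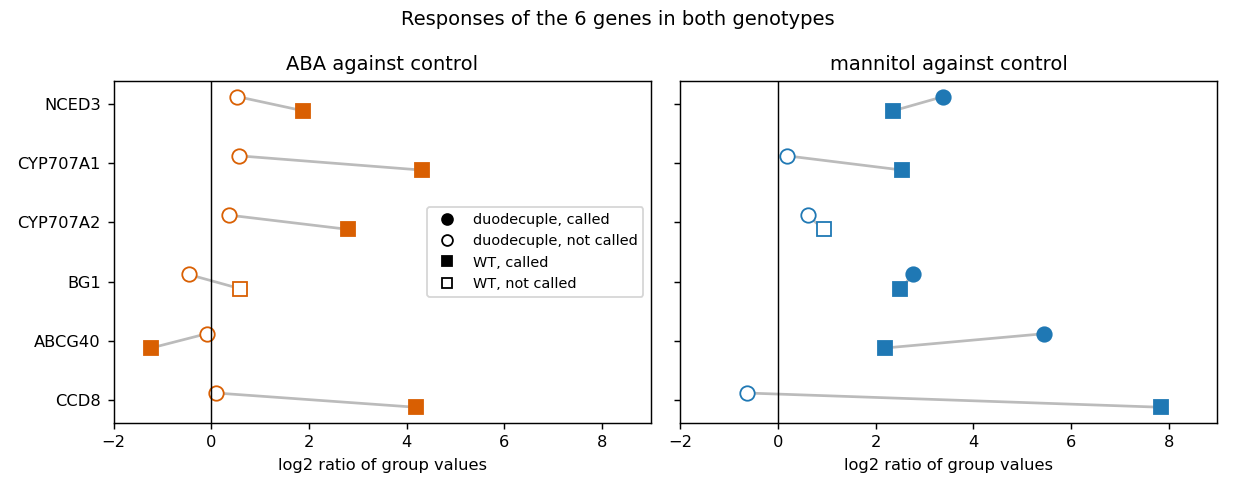
The authors' log2 ratios of treated to control group values for each gene, under ABA (left) and mannitol (right), with circles for the duodecuple line and squares for WT, filled where called. Under ABA every circle is open and lies between -0.46 and 0.58, and under mannitol the circles of NCED3, BG1 and ABCG40 are filled while CCD8 has the longest line, from -0.62 to 7.85.

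Counted over the 6 genes at a 2-fold limit, and a minimum of 5 FPKM in whichever group was higher, the genotypes were set side by side in each treatment. Under ABA 4 genes met the minimum, namely NCED3, CCD8, CYP707A1 and BG1. Each was lower in the duodecuple line, where 22.5% of table genes were higher and 21.4% lower. NCED3, CCD8 and CYP707A1 met the minimum through WT alone, so a fall was the only direction in which they could be counted. Under mannitol ABCG40 was higher (table, 17.2%) and CCD8 and CYP707A1 were lower (21.6%). In control seedlings 2 genes met the minimum, and CYP707A1 was lower (4.07%) while 0 were higher (5.42%). CCD8 and CYP707A1 under mannitol, and CYP707A1 in control, likewise met the minimum through WT alone. The response difference, the duodecuple log2 ratio minus the WT one, was past the limit in the negative direction for NCED3, CCD8, CYP707A1 and BG1 under ABA (17%; 21.8% positive). Under mannitol it was negative for CCD8 and CYP707A1 (17.9%) and positive for NCED3 and ABCG40 (17%). For these differences NCED3 and CCD8 under ABA, and CCD8 under mannitol, reached 5 FPKM in the treated WT alone.

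Mannitol and ABA were also compared directly. In the duodecuple line 3 genes met the minimum of 5 FPKM, namely NCED3, ABCG40 and BG1. They were higher under mannitol than under ABA (table, 24.6%), by 7.24-fold, 46.5-fold and 9.42-fold, and 0 were lower (24.2%). NCED3 and ABCG40 met the minimum through mannitol alone, so only a rise could be counted for them. In WT, CCD8, ABCG40 and BG1 were higher under mannitol (23.9%), ABCG40 by 10.8-fold and BG1 by 3.78-fold, and CYP707A1 was lower (23.6%). ABCG40 met the minimum through mannitol alone in WT too. NCED3 was 1.39-fold higher under mannitol than under ABA in WT.

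The ratio of synthesis to breakdown transcripts depended on which hydroxylase gene was the denominator. NCED3 stood to CYP707A1 as 0.217 under ABA, 2.05 under mannitol and 0.224 in control in the duodecuple line, and as 0.0536, 0.254 and 0.289 in WT, as ratios of FPKM. Mannitol-treated mutants were the single group with more NCED3 than CYP707A1. The ratio of NCED3 to CYP707A2 was 1.19, 7.31 and 1.06 in the duodecuple line under ABA, mannitol and control, and 1.14, 5.77 and 2.15 in WT. With CYP707A2 in the denominator mannitol was thus highest in both genotypes, and the mannitol values of the genotypes lay close together. CYP707A2 was low under mannitol, at 0.805 FPKM in the duodecuple line and 1.30 FPKM in WT. With 1 FPKM added to each value these mannitol ratios were 3.81 and 3.70. Summed over CYP707A1 to CYP707A4, a sum chosen after the values were seen, hydroxylase transcripts came to 10.4, 12.4 and 8.66 FPKM in the duodecuple line and to 132, 48.2 and 10.4 FPKM in WT, under ABA, mannitol and control. CYP707A1 made up 76.1% of the sum in ABA-treated WT and 23.2% in the mannitol-treated mutant, where CYP707A3 made up 69.8%. In that mutant group NCED3, at 5.88 FPKM, was below CYP707A3 alone, at 8.64 FPKM, and below the sum. Levels of transcript do not measure the hormone.

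**Figure D4:**
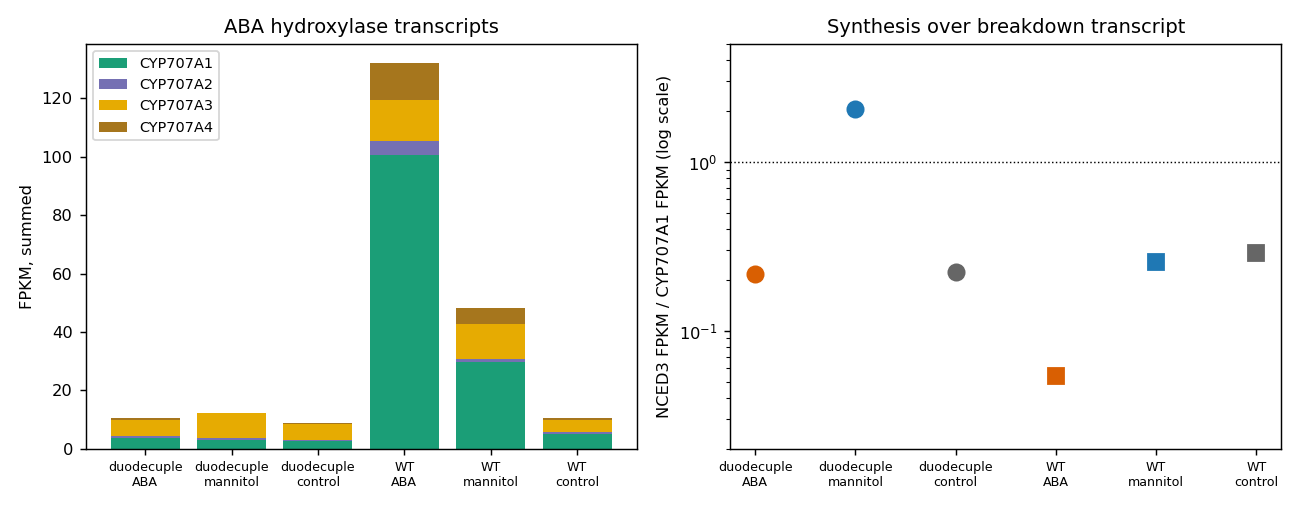
Left, FPKM of CYP707A1 to CYP707A4 stacked from 0 in each group; right, the ratio of NCED3 to CYP707A1 FPKM on a log axis, with a dotted line at 1. The bars of the 3 duodecuple groups lie between 8.66 and 12.4 FPKM while ABA-treated WT reaches 132 FPKM, and the mannitol-treated mutant is the only point above the dotted line, at 2.05.

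Other genes of these pathways were taken from 5 lists with 58 genes, of which 23 are in the table; the other 35, ABA2, ABCG25, CCD7 and MAX1 among them, were not analysed here. In ABA synthesis 3 of 12 genes are listed. AAO3 (AT2G27150), the oxidase of the last step, was not called in the mutant, with log2 ratios of 0.47 under ABA and 0.68 under mannitol, and rose 2.18-fold and 3.13-fold in WT. VDE (AT1G08550), a xanthophyll cycle enzyme, fell in WT under mannitol, with 38.6 FPKM in the mannitol-treated mutant and 22.5 FPKM in WT.

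Of 11 genes of ABA breakdown and conjugation 7 are listed. In the duodecuple line 0 were called under ABA (table, 2.49% higher and 2.79% lower). Under mannitol BG1 alone was called there, as higher (table, 23.3% higher and 27.2% lower). In WT 4 rose under ABA, all of the CYP707A family (table, 17.6% higher), and 6 under mannitol (33.1%). CYP707A4 (AT3G19270) had 0.447, 0.0600 and 0.151 FPKM in the duodecuple line under ABA, mannitol and control, and 12.5, 5.53 and 0.406 FPKM in WT, rises of 30.7-fold and 13.6-fold. CYP707A3 (AT5G45340) had 5.49, 8.64 and 5.46 FPKM in the mutant and 14.3, 11.8 and 4.26 FPKM in WT, where both changes were called. UGT71B7 (AT3G21790), a glucosyltransferase gene of ABA conjugation, and BGLU10 (AT4G27830), a vacuolar beta-glucosidase gene, rose 2.12-fold and 2.50-fold under mannitol in WT. The median log2 ratios of the list were 0.37 and 0.66 in the duodecuple line and 1.75 and 1.47 in WT, under ABA and mannitol. Medians over all table genes were -0.03 and -0.29 in the duodecuple line and -0.30 and -0.21 in WT. The 7 genes include CYP707A1, CYP707A2 and BG1, chosen by these same levels, so nothing is read from the counts or medians of this list.

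Transport genes showed no common direction. Of 11 genes 4 are listed. ABCG22 (AT5G06530), a transporter gene of guard cell regulation, had 22.4, 13.6 and 15.8 FPKM in the duodecuple line and 184, 68.8 and 29.1 FPKM in WT, under ABA, mannitol and control, and both WT changes were called. ABCG30 (AT4G15230) fell and ABCG18 (AT3G55110) rose in the mannitol-treated mutant, by 1.59 and 1.09 on the log2 scale, and neither was called in WT.

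The listed genes of carotenoid synthesis and of the strigolactone path moved in both directions. All 4 listed of 11 carotenoid synthesis genes fell in WT under mannitol (table, 35.3% lower), LCYB (AT3G10230) to 22.4 FPKM and LUT1 (AT3G53130) to 5.71 FPKM, with LUT2 (AT5G57030) and BCH2 (AT5G52570) just past the 2-fold limit. BCH2, a beta-carotene hydroxylase gene, rose in the duodecuple line, 2.07-fold under ABA and 2.69-fold under mannitol. Of 13 strigolactone and carotenoid cleavage genes 5 are listed. D27 (AT1G03055), the isomerase gene upstream of CCD8, had 7.16 FPKM in the mannitol-treated mutant, against 7.10 FPKM in its control, and fell to 2.22 FPKM in mannitol-treated WT, against 10.7 FPKM in its control. CCD4 (AT4G19170), another carotenoid cleavage gene, was at 10.4 FPKM in the mannitol-treated mutant, not called, and fell to 2.90 FPKM in WT. LBO (AT3G21420), an oxygenase gene late in the path, rose under mannitol to 24.3 FPKM in the mutant and 24.5 FPKM in WT. SMXL8 (AT2G40130), a strigolactone signalling repressor gene, fell in WT under ABA to 1.19 FPKM.

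**Figure D5:**
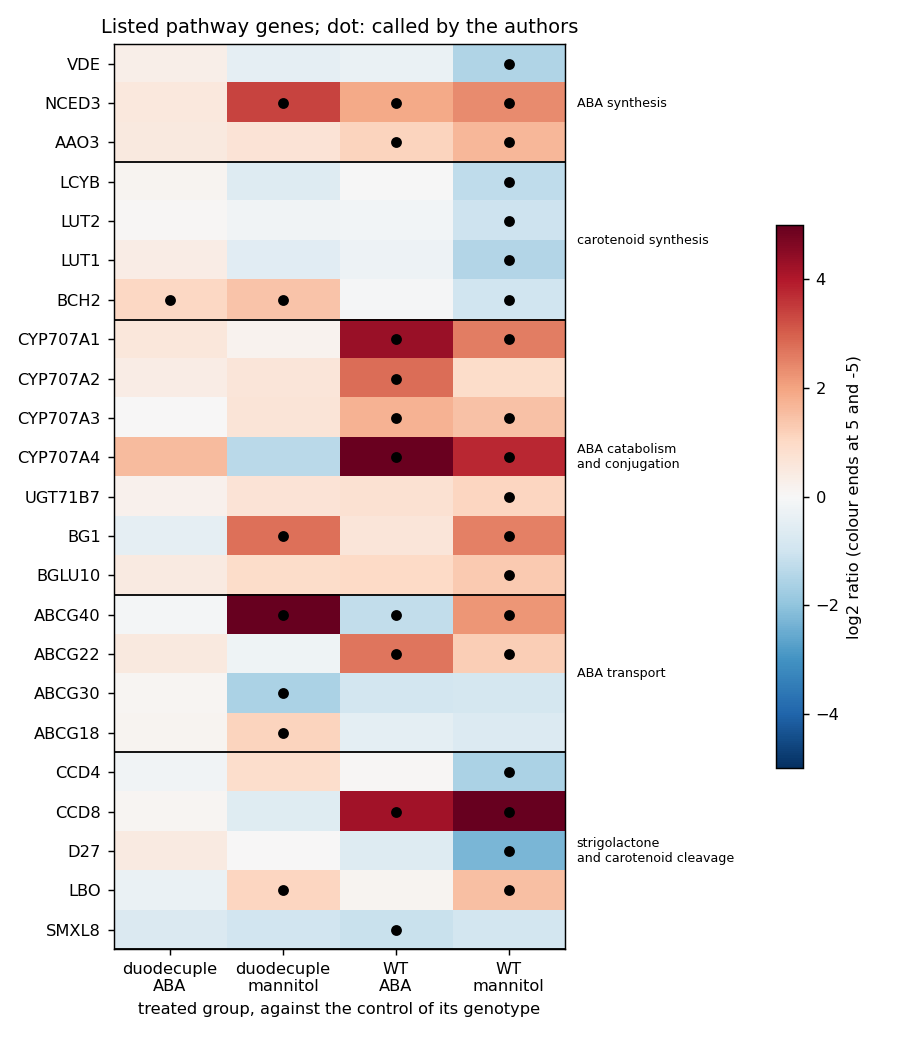
The authors' log2 ratios of treated to control for the 23 listed genes of the 5 pathway lists, in 4 comparisons, with dots where the authors called a change; the colour scale ends at 5 and -5. In the column for ABA in the duodecuple line BCH2 carries the single dot, and in the column for mannitol in WT all 4 carotenoid synthesis genes are below 0 with dots.

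Tissue markers differed between groups too. Markers of green tissue (3 of 3 listed) and of root (2 of 3) were present in every group. The green markers RBCS1A and CAB1 were called lower in WT under mannitol and in no other comparison, with 6167 and 4506 FPKM in the mannitol-treated mutant and 2027 and 1753 FPKM in WT. The root marker EXPA7 had 6.68 FPKM in the mannitol-treated mutant and 18.8 FPKM in WT, against 8.60 and 5.52 FPKM in their controls. COBL9, the other listed root marker, had 0.947 and 3.73 FPKM, against 3.39 and 2.16 FPKM. Under mannitol EXPA7 was called higher in WT alone and COBL9 lower in the mutant alone. LHCB1.4, the other green marker, was called lower in all 4 comparisons. The dividing-cell marker KNOLLE had 14.4 FPKM in the mannitol-treated mutant and 11.5 FPKM in WT, against 39.3 and 27.3 FPKM in their controls, and CYCB1;1 had 2.98 and 2.15 FPKM, against 6.38 and 3.62 FPKM. Under ABA KNOLLE had 30.5 FPKM in the mutant and 10.02 FPKM in WT, and CYCB1;1 had 4.61 FPKM in the mutant and 1.12 FPKM in WT. Both were called lower in ABA-treated WT, by 2.72-fold and 3.24-fold, and neither in the ABA-treated mutant. In RNA of seedlings fewer cells of a type and less RNA per cell cannot be told apart, and the part of tissue shares in the results on CCD8 and the other genes was not tested. ACT2, a common reference gene, had 282 FPKM in the mannitol-treated mutant and 274 FPKM in WT, against 484 and 588 FPKM in control, and the WT change was called. Of 12 receptor genes taken, from the numbers in the series title, as the mutated set 5 are listed. In control seedlings PYR1 had 181 FPKM in the duodecuple line and 173 FPKM in WT, PYL4 had 112 and 183 FPKM, PYL5 had 13.1 and 90.6 FPKM, PYL8 had 73.0 and 225 FPKM, and PYL12 had 1.57 and 0.407 FPKM. PYL5 was 6.92-fold and PYL8 3.08-fold lower in the duodecuple line, and transcript levels do not show whether a lesion is present.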

How the data were processed

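The deposited table gives, for each group, 1 FPKM value made by the authors from 3 libraries; the unit is inferred from the tools, because the header names none. TopHat, Cufflinks, Cuffdiff and the build TAIR10 are named in the submitters' processing notes, with no version or setting. Deposited beside the levels are the authors' log2 ratios, treatment to control, within 4.7e-05 of those from the group values, and a yes or no call per comparison. Values and p-values per library were not in the files used, so planned models were not fitted, depth is unknown and no error or interval is given. Nor could the control column of a genotype, shared by ABA and mannitol, be split.

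The 6 genes and the pathway lists were chosen with earlier results of these data known. Genes were named by a fixed rule: the 6 members, listed members of each pathway list, and the 3 nearest genes per member. Ratios without an authors' call were counted at 2-fold with 5 FPKM in the higher group. Alternatives were pseudocounts of 0.1, 1 and 5 FPKM, a 4-fold limit, other minimums and, added after seeing the data, division by the median ratio. Of the table's identifiers 6726 matched RefSeq's TAIR10.1 gene table. Promoters and coding sequences were read from TAIR10.1 with its own annotation; the table holds no coordinates. Protein sequences were not used, so identity was computed on coding bases. The nearest-gene and motif searches were tested on simulated data. Python 3.11.15, numpy 2.4.6, pandas 2.3.3, matplotlib 3.10.9 and biopython 1.88 were used.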

Additional observations from a re-analysis of the deposited data

Results flagged for a closer look

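Genes of the 5 pathway lists are given here where the authors called a change in at least 1 genotype and the other genotype's group value moved the opposite way under the same treatment. Values are log2 response differences, duodecuple minus WT, and none was tested, since each genotype has 1 value per group.

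CCD8 had the largest difference, -8.48 under mannitol, from a duodecuple ratio of -0.62 and a WT ratio of 7.85. The duodecuple change was not called and lay between levels of 0.582 and 0.897 FPKM. With 1 FPKM added to each value the CCD8 difference was -6.47, and with 5 FPKM added it was -4.43. CYP707A4 had -5.10 under mannitol, with a duodecuple level of 0.0600 FPKM behind it, and ABCG22 had -1.45. Carotenoid genes gave positive values under mannitol, 2.46 for CCD4, 2.43 for BCH2 and 2.29 for D27, whose duodecuple ratio of 0.01 is close to 0. For ABCG18 the difference was 1.76 under mannitol. BCH2 also differed under ABA, by 1.11, with a WT ratio of -0.058 that is close to 0 and was not called. Its mannitol changes were called in both genotypes, with the duodecuple line higher at 10.6 FPKM against 3.92 FPKM in its control, and WT lower at 4.70 FPKM against 9.43 FPKM in its control.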

How the results depend on the processing

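Of 408 recomputed log2 values of the 6 genes, 32 lost their call or the limit and 6 gained the limit. The signs of most of these values could not change, since a changed limit leaves a value as it is and an equal pseudocount cannot turn round a ratio between groups. In WT under ABA, 5 genes were called, and 2 of them were still 2-fold apart with a pseudocount of 5 FPKM, 3 at a 4-fold limit, 3 with at least 5 FPKM and 3 by the 2-fold limit and minimum alone. After division by the median ratio of the table, ABCG40 there had a log2 ratio of -0.93. Between control seedlings of the genotypes, the count of 1 became 0 with pseudocounts of 0.1, 1 and 5 FPKM, 0 at 4-fold, 0 after division by the median ratio and 3 without a minimum. For mannitol against ABA in WT the count of 4 became 2 at 4-fold, and the ABA response difference went down to 2 genes of 4 with 5 FPKM added and to 2 at 4-fold. With 1 FPKM added the ratio of NCED3 to CYP707A1 was 0.382 in the ABA-treated and 0.444 in the control duodecuple line. NCED3 fell below 2-fold under mannitol with 5 FPKM added, with log2 ratios of 0.97 in the duodecuple line and 0.95 in WT. From 250 bases before to 50 after the gene start, 3 genes held ACGTG, with BG1 added, and 0 held CCGAC. Of table promoters, 33.8% and 14.3% held them in this window. Where a call or limit was lost the cause was not tested.

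No paired analysis was possible because the columns hold 1 value per group and carry no replicate number, and leaving out replicates was not run for the same reason.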

Other observations

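Of the 10 annotated loci nearest to CCD8, 6 are listed and the others were not analysed here. In WT under mannitol 2 of the 6 were called higher, near the share of table genes, 33.1%. VTE1 (AT4G32770), a tocopherol cyclase gene, was called higher in WT under ABA (2.03-fold) and mannitol (2.06-fold) and in neither treatment of the duodecuple line, the calls that CCD8 also had, with 231-fold for CCD8 under mannitol. AT4G32860 was called higher in WT under mannitol alone, 2.20-fold. AT4G32800, a DNA-binding protein gene, was called lower under mannitol in both genotypes, with 4.40 FPKM in the mutant and 2.67 FPKM in WT. AT4G32790 was called lower in WT under mannitol alone, to 0.476 of its control level. AT4G32780 and AUR1 (AT4G32830) were called lower in WT under ABA, to 0.228 and 0.384 of control. AUR1 was also called lower in the mutant under mannitol. None of the 10 loci nearest to CYP707A1, or to ABCG40, is in the table.

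Beside BG1 lies TSA1 (AT1G52410), whose product is known from the same endoplasmic reticulum bodies as the BG1 protein. TSA1 had 9.91, 55.7 and 12.9 FPKM in the duodecuple line under ABA, mannitol and control, and 33.8, 68.9 and 20.0 FPKM in WT. Its mannitol rises, 4.33-fold in the mutant and 3.44-fold in WT, were called, and neither ABA value was. The order of the 6 groups was the same for TSA1 and BG1. TSA1 was looked at after the values had been seen.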
